A study of Homo sapiens with 6 samples.

Results

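miR-139, miR-326, miR-504 and miR-874 are microRNAs (miRNAs) encoded within introns of protein-coding genes. Their rows were taken from the small RNA-seq table of MDA-MB-231 cells treated with Withaferin A (WA) as every arm of miR-139, miR-504 and miR-874, plus miR-326. The rule found 5 of the 413 rows, namely hsa-miR-139-5p, hsa-miR-139-3p, hsa-miR-326, hsa-miR-504-5p and hsa-miR-874-3p, from 4 hairpins. The species prefix is left out below. The miRNAs were picked for low values in every WA library, so their values in the WA-versus-vehicle contrast are a description and carry no test. The rule also took in miR-139-3p, which did not have a low value in WA replicate 3.

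MDA-MB-231 is a widely used cell line derived from a human triple-negative breast tumour, and WA is a steroidal lactone of the plant Withania somnifera. The 3 WA libraries came from cells given 2 µM WA for 24 h and the 3 vehicle libraries from cells kept for the same time without WA. The paper names the vehicle as DMSO, whereas the sample labels describe those cells as control cells. The paper calls the replicates independent and the labels do not say whether they were separate cultures, so p-values measure the spread between these samples, which may be technical.

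An intronic miRNA is transcribed as part of its host gene, or from a promoter of its own within it. Drosha cuts the hairpin out and Dicer releases a short duplex, of which usually 1 strand is retained by Argonaute as the guide. Bases 2 to 8 of the guide, the seed, pair with target mRNAs and so reduce their translation and stability. The miRNAs described here are often called tumour suppressors. The paper differs on miR-326, whose increase it links to the disease process of triple-negative breast cancer. miR-139-5p is known to repress ROCK2, IGF1R and NOTCH1, which act in migration, growth signalling and cell fate. miR-326 is known to repress NOTCH receptors, and miR-874-3p represses the phosphatase subunit PPP1CA and the water channel AQP3. Targets and proteins were not analysed here, so the name tumour suppressor was not checked against these data.

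The mature sequences are shown because the seed sets which targets a miRNA shares with others. They were taken from RefSeq on GRCh38 and run 5′ to 3′, with the seed in capitals.
miR-504-5p: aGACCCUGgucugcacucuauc
miR-139-5p: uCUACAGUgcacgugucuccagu
miR-326: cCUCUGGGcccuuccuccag
miR-874-3p: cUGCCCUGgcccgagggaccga
miR-139-3p: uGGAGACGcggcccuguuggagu
miR-330-5p: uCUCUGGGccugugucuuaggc
The 5 seeds of the picked miRNAs all differed from each other. miR-326 shared the seed CUCUGGG with miR-330-5p, the only other mature RefSeq miRNA with it. Rows without a RefSeq sequence were not searched. The seed of miR-504-5p was shared with 1 mature RefSeq miRNA that was not among the rows. The seeds of miR-139-5p, miR-139-3p and miR-874-3p were shared with 0 other mature RefSeq miRNAs.

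The miR-139 hairpin is shown because it was the only one of the 4 hairpins with both arms among the rows. It has 68 bases and lies at chr11:72615063-72615130 (GRCh38, minus strand). Bases 7 to 29 are the 5p arm and bases 43 to 65 the 3p arm, both in capitals.
MIR139: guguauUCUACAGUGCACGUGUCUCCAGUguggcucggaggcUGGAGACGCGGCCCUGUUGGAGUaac

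All 5 mature sequences lie on the minus strand, in the direction of their host gene. Host introns are numbered in the GENCODE release 44 canonical transcript. miR-139-5p (chr11:72615102-72615124) and miR-139-3p (chr11:72615066-72615088) lie in intron 2 of PDE2A (ENSG00000186642), a cyclic nucleotide phosphodiesterase. That intron spans 33502 bases. miR-326 (chr11:75335108-75335127) lies in intron 1 of ARRB1 (ENSG00000137486), which encodes β-arrestin 1, in an intron of 61548 bases. Although both are on chromosome 11, miR-139-5p and miR-326 are 2719983 bases apart. miR-874-3p (chr5:137647582-137647603) lies in intron 8 of KLHL3 (ENSG00000146021), a substrate adaptor of a cullin ubiquitin ligase, in an intron of 18153 bases. miR-504-5p (chrX:138667760-138667781) lies in intron 3 of FGF13 (ENSG00000129682), an intracellular member of the fibroblast growth factor family, in an intron of 67328 bases. The mature sequences overlapped 0 exons of the host transcripts that span them. No other row with a RefSeq position lay within 50 kb of the mature sequences or in the same host genes. This search covered 368 of the 413 rows, and the rest had no position. Host mRNAs were not measured.

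The authors deposited normalized values, that is, reads divided by a size factor of the library. Each value was a whole multiple of a library's smallest step, and reads are given on the assumption that 1 step is 1 read. The vehicle libraries held between 710878 and 4778066 reads, and the WA libraries between 156442 and 2232934. The limit set by a count of 0 is 3 reads, equal to normalized values of 17.4, 5.36 and 2.25 in WA replicates 1, 2 and 3. WA replicate 3 stood apart from its group. Across all 413 rows on a log2 scale, which are not independent replicates, WA replicates 1 and 2 correlated at r = 0.964 and WA replicate 3 correlated with them at 0.630 and 0.641. Its correlations with the vehicle libraries were 0.772, 0.797 and 0.774. Vehicle replicate 1 correlated with the others of its group at 0.785 and 0.792, against 0.987 between vehicle replicates 2 and 3. Of the epithelial miR-200 family, 4 rows (miR-200a-3p, miR-200b-3p, miR-200c-3p and miR-429), chosen after their values were seen, differed along the same lines. Their summed normalized value was 1820, 192 and 234 in the vehicle libraries, 0 in WA replicates 1 and 2 and 1240.4 in WA replicate 3. The part of these library differences in the member values was not tested.

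All 5 miRNAs were detected in every vehicle library and listed at 0 in WA replicates 1 and 2. The library that distinguished them was WA replicate 3, where the values ran from 0 for miR-504-5p to 93.9 for miR-139-3p. In bulk libraries, fewer cells with a miRNA and less of it per cell cannot be told apart.

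For hsa-miR-504-5p the vehicle libraries gave normalized values of 28.4, 1122 and 2373, from 21, 3928 and 7763 reads, and was listed at 0 in all 3 WA libraries. It was the only one of the 5 at 0 in every WA library. At its vehicle mean of 1174 ± 1173 (SD, n = 3), 203, 657 and 1563 reads would have been counted at the depth of WA replicates 1 to 3. Without vehicle replicate 3 the mean was 575 and these numbers were 99.2, 322 and 766, and at the level of vehicle replicate 1 they were 4.91, 15.9 and 37.9. Its vehicle libraries disagreed most: replicate 3 was 83.4 times and replicate 2 was 39.4 times replicate 1. In rank within the library it was 272nd of 413 in vehicle replicate 1, 73rd in replicate 2 and 53rd in replicate 3. Of the 240 rows with a vehicle mean at or above that of miR-139-3p, 15 had a vehicle replicate 1 value under 10% of both other vehicle libraries. Of the 392 rows above 0 in vehicle replicate 1, only miR-148a-3p and miR-99a-5p matched or exceeded miR-504-5p in this gap. Rows at 0 in that library give no such ratio and were left out.

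For hsa-miR-139-5p the normalized values were 417, 804 and 764 in the vehicle libraries, 0 in WA replicates 1 and 2, and 72.1 (96 reads) in WA replicate 3. The vehicle mean was 662 ± 213 (SD, n = 3), which would have been 114 and 370.4 reads at the depth of WA replicates 1 and 2. WA replicate 3 retained 10.9% of the vehicle mean (exact Poisson 95% interval of its reads 8.83% to 13.3%), a 9.17-fold lower level. This interval and those given for the other miRNAs cover counting error only. The highest WA library was 5.78-fold below the lowest vehicle library, so the groups did not overlap.

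For hsa-miR-326 the normalized values were 96.2, 166.5 and 160.5 in the vehicle libraries (mean 141 ± 39.0, SD, n = 3). It was listed at 0 in WA replicates 1 and 2 and at 2.25, from 3 reads, in WA replicate 3. That was 1.60% of the vehicle mean (0.330% to 4.67%), where 188 reads would have been counted at the vehicle mean. In WA replicate 1 the vehicle mean would have been only 24.3 reads.

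hsa-miR-874-3p gave a similar series at a lower level, with 44.7, 68.8 and 74.6 in the vehicle libraries (mean 62.7 ± 15.9, SD, n = 3). It was at 0, 0 and 3.01 (4 reads) in WA replicates 1 to 3, the last being 4.79% of the vehicle mean (1.31% to 12.3%). The vehicle mean corresponded to 10.8 reads in WA replicate 1 and 35.1 in WA replicate 2, so the depth of WA replicate 1 said little about this miRNA.

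hsa-miR-139-3p, the other arm of the miR-139 hairpin, had 39.3, 34.6 and 59.9 in the vehicle libraries (mean 44.6 ± 13.5, SD, n = 3). It was at 0 in WA replicates 1 and 2 but at 93.9 (125 reads) in WA replicate 3, above every vehicle library. That was 211% of the vehicle mean (175% to 251%), so the groups overlapped in rank. Its vehicle mean corresponded to 7.69 reads in WA replicate 1 and 25.0 in WA replicate 2.

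**Figure D1:**
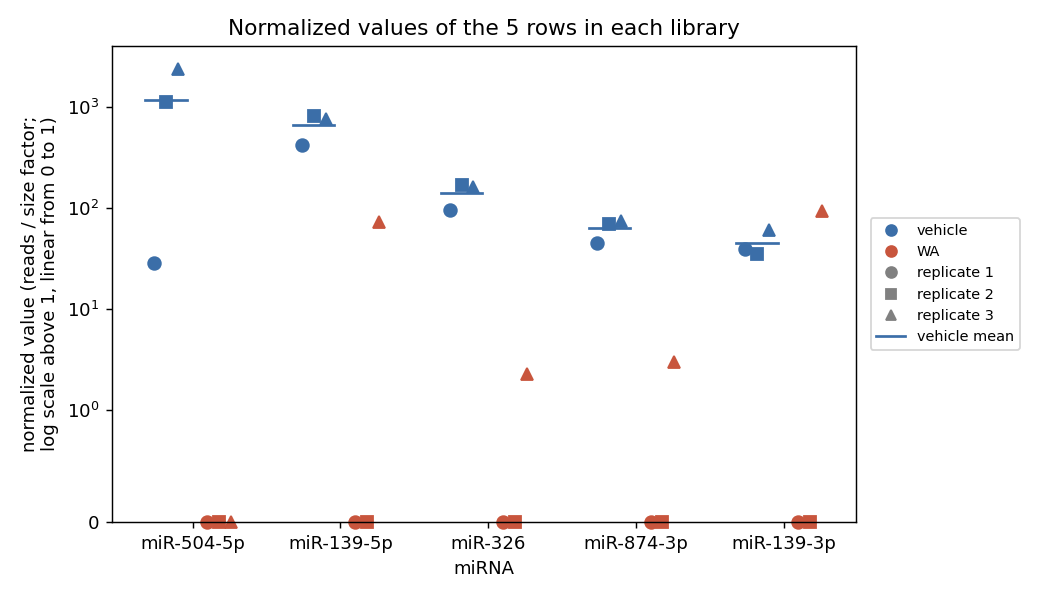
Normalized value (log scale above 1, linear from 0 to 1) of the 5 miRNAs in each of the 6 libraries. Colour gives the group, marker shape the replicate number, and the short bars the mean of the 3 vehicle libraries. All 5 were at 0 in WA replicates 1 and 2, and in WA replicate 3 they ranged from 0 for miR-504-5p to 93.9 for miR-139-3p.

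By vehicle mean the order was miR-504-5p, miR-139-5p, miR-326, miR-874-3p and miR-139-3p. The lowest miR-139-5p value (417) lay above the highest miR-326 value (166.5), and the lowest miR-326 value (96.2) lay above the highest miR-874-3p value (74.6). The ranges of miR-874-3p and miR-139-3p overlapped, and that of miR-504-5p overlapped those of all 4 others. Leaving out vehicle replicate 3 placed miR-139-5p above miR-504-5p. These compare reads of mature miRNAs of 20 to 23 bases, and ligation and amplification differences between sequences were not measured. For 4 of the 5 miRNAs vehicle replicate 1 was the lowest vehicle library, as it was for 168 of the 413 rows (40.7%). Apart from miR-504-5p, vehicle replicate 3 was 1.53 to 1.83 times vehicle replicate 1.

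The picked miRNAs were read against the other rows of the table. The test was limited to rows that reached a normalized value of 10 in 3 or more libraries, as 327 of the 413 rows and all 5 members did. Every WA library lay below every vehicle library for 4 of the 5, against 64 of the 327 tested rows (19.6%). A value of 0 in both WA replicates 1 and 2 was found for all 5, against 75 of 327 (22.9%). limma on log2(normalized value + 1) called 17 of the 327 rows lower in WA at a Benjamini-Hochberg adjusted p under 0.05 (5.2%) and 1 higher (0.306%). The 17 include 3 of the picked miRNAs. The members were chosen on this contrast, so nothing is read from their counts.

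Among the 240 rows with a vehicle mean at or above that of miR-139-3p, 52 (21.7%) were at 0 in WA replicates 1 and 2, and 3 were at 0 in all WA libraries. The 3 were miR-504-5p, miR-1275 and miR-582-5p. At or above the vehicle mean of miR-504-5p there were 72 rows. miR-504-5p was the only 1 of them listed at 0 in all WA libraries, while 4 were at 0 in WA replicates 1 and 2. It was picked for low values in every WA library, so this follows in part from that choice and carries no test. Its vehicle mean rests on vehicle replicates 2 and 3, with 28.4 in vehicle replicate 1. Of all 413 rows, 41 were at 0 in all WA libraries. In WA replicate 3 the median of the 240 rows was 72.5% of the vehicle mean. The number of rows at or below the percentage of each miRNA was 4 for miR-504-5p, 8 for miR-326, 21 for miR-874-3p, 42 for miR-139-5p and 188 for miR-139-3p. The 5 miRNAs therefore ran from the lowest to the upper part of this order, with the arms of 1 hairpin far apart in it.

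**Figure D2:**
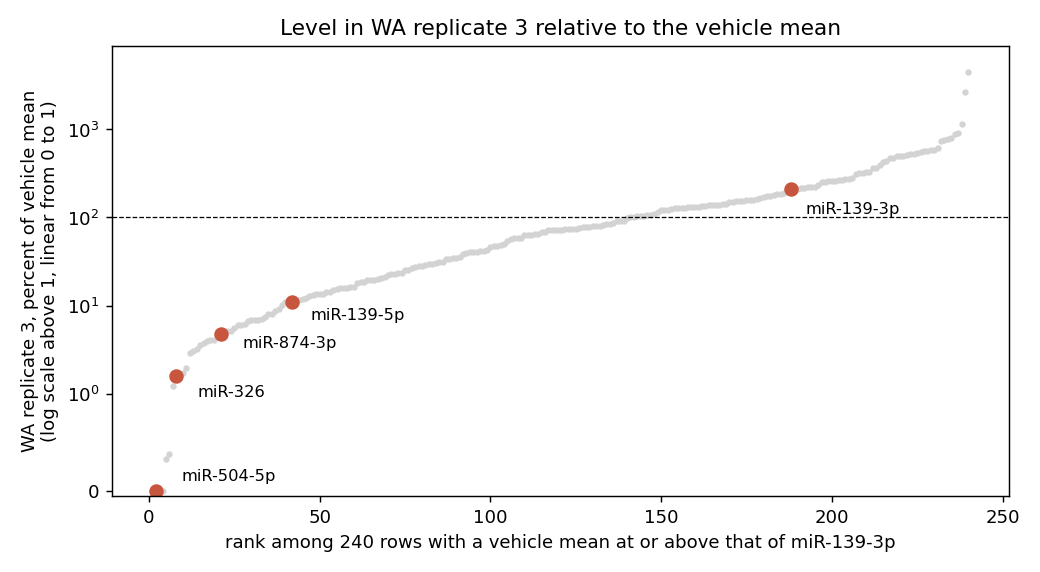
Value in WA replicate 3 as a percent of the vehicle mean (log scale above 1, linear from 0 to 1) against rank, for the 240 rows with a vehicle mean at or above that of miR-139-3p. Red points are the 5 miRNAs, grey points the other rows, and the dashed line is 100%. miR-504-5p, miR-326, miR-874-3p and miR-139-5p lie between 0 and 10.9%, and miR-139-3p at 211%.

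The ratio of the miR-139 arms does not depend on how libraries were scaled. The 5p to 3p ratio was 10.6, 23.3 and 12.75 in vehicle replicates 1 to 3 (mean 15.5 ± 6.77, SD, n = 3) and 0.768 in WA replicate 3. The 5p arm was thus the major arm in all 3 vehicle libraries and the 3p arm in WA replicate 3. Both arms were at 0 in WA replicates 1 and 2, so the WA ratio rested on 1 library and has no replicate check. miR-139-5p was picked for low values in every WA library, so a low ratio in WA replicate 3 follows in part from that choice. The log2 ratio in WA replicate 3 was lower by 4.25 than the vehicle mean (difference -4.25), while the vehicle libraries spanned 1.13 on that scale.

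Shifts of this kind occurred at other hairpins in the same library. Of 100 hairpins with both arms in the table, 79 had both above 0 in every vehicle library and in WA replicate 3. Their differences in log2 ratio ran from -6.00 to 6.35 with a median of 0.05, and that of miR-139 ranked 3rd from the most negative. That rank carries no test, because miR-139-5p was picked for its low WA values and the other hairpins were not. The 5p arm was the higher one in every vehicle library for 35 hairpins, of which 3 had a higher 3p arm in WA replicate 3. The 3 were miR-139, miR-17 (ratio 23.9, 54.3 and 47.9 in the vehicle libraries and 0.618 in WA replicate 3) and miR-130b (3.47, 6.82 and 13.3, against 0.986). The miR-17 ratio was 11.5 and 26.4 in WA replicates 1 and 2, where the miR-139 arms gave no ratio. In the opposite sense, 4 of 37 hairpins with the 3p arm higher in every vehicle library had a higher 5p arm in WA replicate 3. Both arms were at 0 in WA replicates 1 and 2 for 19 hairpins.

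**Figure D3:**
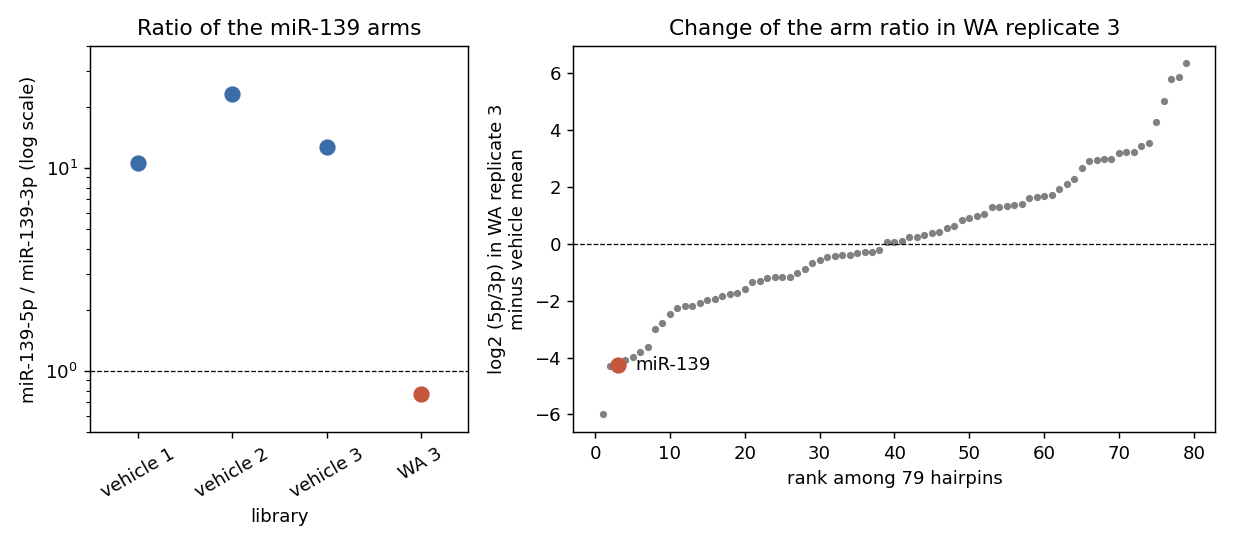
Left, ratio of miR-139-5p to miR-139-3p (log scale) in each library where both arms were above 0; the dashed line marks equal arms. Right, difference in log2 5p to 3p ratio between WA replicate 3 and the vehicle mean, for 79 hairpins in rank order. miR-139 (red, -4.25) is the 3rd most negative, and its 5p arm was picked for low WA values.

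miR-330-5p, which shares the seed of miR-326, was not picked on its values and was tested. It comes from chromosome 19 (chr19:45639049-45639070, minus strand), within EML2. Its normalized values were 66.4, 235 and 262 with vehicle, against 52.2, 25.0 and 93.9 with WA. WA replicate 3 lay above vehicle replicate 1, so the groups overlapped. The log2 fold change was -1.66 (SE 1.12, limma adjusted p = 0.378), and an exact two-sided permutation test gave p = 0.2, where 0.1 is the smallest p that 3 against 3 allows. Leaving out each library in turn gave log2 fold changes from -2.29 to -1.18, with limma adjusted p from 0.0959 to 0.692.

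Of the reads of the 2 miRNAs together, miR-326 made up 59.2% (Wilson 95% interval 50.2% to 67.5%), 41.5% (38.9% to 44.1%) and 38.0% (35.4% to 40.5%) in vehicle replicates 1 to 3. In WA replicates 1 and 2 its share was 0 of 9 and 0 of 14 reads, which allows shares of up to 33.3% and 21.4%. In WA replicate 3 it was 3 of 128 reads, or 2.34% (0.800% to 6.66%). The reads left with this seed in the WA libraries were thus mostly or wholly assigned to miR-330-5p. Because miR-326 was picked for low values in every WA library, its low share there follows from that choice and carries no test. The intervals cover counting error only.

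**Figure D4:**
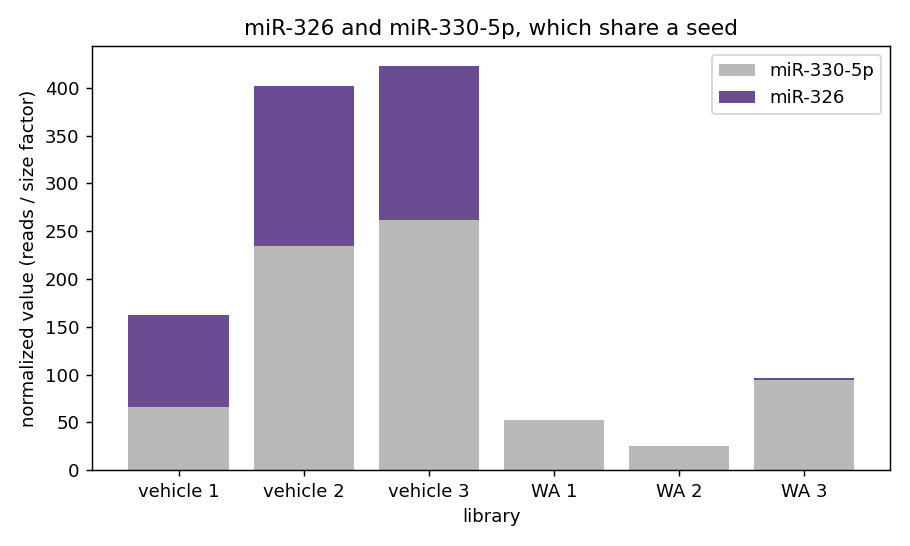
Normalized values of miR-330-5p (grey) and miR-326 (purple) stacked for each of the 6 libraries, on a linear axis from 0. The 2 miRNAs share bases 2 to 8; miR-326 ranges from 96.2 to 166.5 in the vehicle libraries and is 0, 0 and 2.25 in the WA libraries.

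Likeness of pattern was measured as the root mean square difference of log2(normalized value + 1) over the 6 libraries, after each miRNA was centred on its own mean. Each member was compared with the 326 other tested rows. The distance includes the WA libraries in which the members were picked for low values. Likeness among them, and to other rows low in WA, follows in part from that choice and carries no test. The nearest rows to miR-326 were miR-3940-3p (0.611), miR-874-3p (0.635) and miR-1908-5p (0.750). The nearest to miR-874-3p were miR-3940-3p (0.488), miR-5010-3p (0.600) and miR-326, so these miRNAs of ARRB1 and KLHL3 were the closest pair of the picked 5. miR-139-5p was nearest to miR-584-5p (0.558), miR-452-5p (0.651) and miR-615-3p (0.801). Its own 3p arm was at a distance of 2.02 and was nearest to miR-769-3p (0.457), miR-3934-5p (0.513) and miR-30a-5p (0.513). The rows nearest to miR-504-5p lay farther off, at miR-1269b (1.87), miR-326 (2.11) and miR-615-3p (2.24), and its distance from miR-139-3p (3.97) was the largest among the 5.

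GC content of the mature sequences was 54.5% for miR-504-5p, 52.2% for miR-139-5p, 65.2% for miR-139-3p, 70.0% for miR-326 and 77.3% for miR-874-3p. Among the 240 rows above, 217 (90.4%) had a RefSeq sequence. In the group with the lowest GC content (22.2% to 45.5%), 14 of 83 rows (16.9%) were at 0 in WA replicates 1 and 2. In the middle group (45.8% to 54.5%), which holds miR-504-5p and miR-139-5p, 13 of 63 were (20.6%). In the highest group (56.5% to 77.3%), with miR-874-3p, miR-326 and miR-139-3p, 20 of 71 were (28.2%). The median percentage of the vehicle mean in WA replicate 3 was 78.1%, 103.2% and 38.9% in these groups. The part of GC content in the member values was not tested.

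Other miRNAs within introns of protein-coding genes give the background for the shared genomic setting. Of 200 such rows besides the picked 5, 151 were tested. limma called 9 lower (5.96%) and 1 higher in WA, with a median log2 fold change of -0.61, and 31 lay lower and 5 higher at an unadjusted p under 0.05. Of 139 tested rows with a position but no locus in such an intron on the same strand, limma called 4 lower (2.88%) and 0 higher. Their median was -1.04, and 30 lay lower and 10 higher at an unadjusted p under 0.05. Introns of non-coding genes and of genes on the opposite strand did not count as introns here. A row with several loci counted as intronic if any of them was, as for let-7f-5p, which also has a locus outside such introns. The median of all 327 tested rows was -0.91. The difference between intronic and other miRNAs was not tested. Every WA library lay below every vehicle library for 25 of the 151 intronic and 28 of the 139 other rows, and 38 and 24 were at 0 in WA replicates 1 and 2. The adjusted calls changed with single libraries: 54 intronic rows were called lower without WA replicate 3, and 0 when vehicle replicate 2 or 3 or WA replicate 1 or 2 was left out.

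Of the 9 intronic rows called lower, the 4 with the highest vehicle means were miR-1908-5p, miR-3940-3p, miR-5010-3p and miR-582-5p. miR-1908-5p, in FADS1, had 160, 167 and 299 with vehicle, against 0, 0 and 12.8 with WA (log2 fold change -6.39, SE 1.40, limma adjusted p = 0.0451). The values for miR-3940-3p in KHSRP were -5.83, SE 1.15 and limma adjusted p = 0.0344, and for miR-5010-3p in ATP6V0A1 -4.91, SE 1.00 and limma adjusted p = 0.0344. miR-582-5p in PDE4D, a phosphodiesterase gene like the miR-139 host, was at 0 in all WA libraries (-5.18, SE 0.908, limma adjusted p = 0.0300). Vehicle replicate 1 gave 13.5 for both miR-5010-3p and miR-582-5p, below the 17.4 that 3 reads mean in WA replicate 1. At that level a 0 in WA replicate 1 says little about them. The 3 most abundant intronic rows that were not called were let-7f-5p (log2 fold change 0.72, limma adjusted p = 0.562), miR-423-3p (-2.21, 0.0943) and miR-26a-5p (-0.26, 0.816).

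Other miRNAs known as tumour suppressors in breast cancer were taken from a list of 36 names, of which 26 were rows and 23 were tested. limma called 0 lower and 0 higher, and 1 lay higher and 0 lower at an unadjusted p under 0.05. Without WA replicate 3, 6 were called lower. Their median log2 fold change was -0.36, with 13 of 23 below 0. None of the 23 had every WA library below every vehicle library, and 4 were at 0 in WA replicates 1 and 2, the miR-200 family rows described above. The 3 with the highest vehicle means were miR-148a-3p (-1.35, limma adjusted p = 0.633), miR-125a-5p (-0.69, 0.783) and miR-125b-5p (1.38, 0.445).

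**Figure D5:**
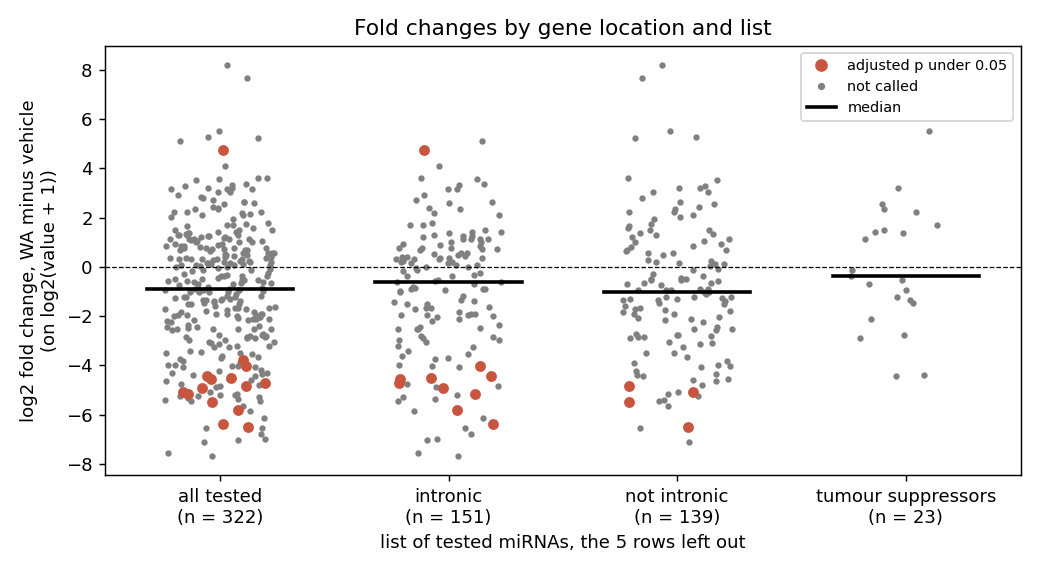
Log2 fold change (WA minus vehicle, on log2(normalized value + 1)) of tested rows without the picked 5, for all 322, for 151 intronic, 139 not intronic and 23 tumour-suppressor miRNAs. Red points have a limma adjusted p under 0.05 and grey points do not. Black bars are medians, at -0.61 for intronic and -0.36 for tumour-suppressor miRNAs. Intronic means that any locus lies within a same-strand intron of a protein-coding gene.

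The RefSeq promoter windows of 3 of the 4 host genes, from 250 bases before to 50 bases after a transcript start, were searched on both strands for 6 motifs. There were 3 windows for KLHL3, 2 for FGF13 and 1 for PDE2A, and ARRB1, the host of miR-326, was not analysed here. The AP-1 motif TGANTCA had 1 match in 1 FGF13 window and is found in 7.71% of all 35116 windows. The heat shock element GAANNTTC had 1 match in 1 KLHL3 window (6.77% of all windows), and the SP1 motif GGGCGG 1 match in another (45.0%). The NF-kB motif, whose letters can overlap those of SP1, had 5 matches in the other FGF13 window (58.7%). The E-box CACGTG (7.26%) and the antioxidant response element TGACNNNGC (13.3%) had none in these windows, and the PDE2A window had no match to any of the 6. A match is a run of letters and not a measured site.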

How the data were processed

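All 6 small RNA-seq libraries of MDA-MB-231 cells entered, 3 given vehicle and 3 given WA. The authors trimmed reads with Trim Galore, aligned them with Bowtie to GRCh38.p10 and assigned them to known miRNAs. How reads shared between similar miRNAs were counted is not given in the sources used here. The signal values that were deposited are read counts of each miRNA divided by the authors' DESeq2 size factor. The authors' linear fold ratios, log2 fold changes and p-values in the same table were not used. Within a library, values were whole multiples of 1 step, within 0.0001 steps, for 100% of rows.

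The members and lists were chosen with earlier results of these data known. Rows that reached a value of 10 in 3 or more libraries (327 of 413) were compared in R 4.3.3 with limma 3.58.1, using log2(value + 1), with a variance trend, not robust. The test was two-sided and unpaired, and p-values were adjusted after Benjamini and Hochberg. For low rows with reads, the added 1 makes a fold change on this scale an understatement. For rows at 0 it can also be an overstatement, since 3 reads equal 17.4 and 5.36 in WA replicates 1 and 2. The scripts were tested on simulated data. Count tests with edgeR and DESeq2 were not run because the values are normalized and that 1 step is 1 read is an assumption. The read numbers and their intervals given here rest on that assumption. The members entered the fit over all rows, and no p-value is given for them because they were picked on that contrast. By rule, named miRNAs were the members, rows sharing their seed, host gene or a 50 kb neighbourhood, and the 3 nearest in pattern. From the intronic and tumour-suppressor lists came the called rows, or the 4 with the highest vehicle mean where there were more. The 3 uncalled rows with the highest vehicle mean in each were added. Named outside this rule were miR-17, miR-130b, miR-99a-5p and miR-1275, which shared a described trait with a member, and the miR-200 rows. Host genes and introns came from GENCODE release 44 (GRCh38). Sequences and positions of the miRNAs came from RefSeq on GRCh38 and matched 368 of 413 rows (89.1%), of which 39 had several loci. The remaining steps ran in Python 3.11.15 with pandas 2.3.3, numpy 2.4.6, matplotlib 3.10.9 and scipy 1.17.1. The alternatives were other pseudocounts, filters and scalings, the replicate number as a block, and each library left out in turn.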

Additional observations from a re-analysis of the deposited data

How the results depend on the processing

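The zeros of the 5 miRNAs do not move with scaling, and miR-504-5p was at 0% in WA replicate 3 throughout. With upper-quartile scaling the percentage of the vehicle mean in WA replicate 3 was 14.6% for miR-139-5p, 2.13% for miR-326, 6.39% for miR-874-3p and 277% for miR-139-3p, and total-count scaling gave 3.47% for miR-874-3p. Dividing by the median of the vehicle libraries in place of their mean, chosen after seeing the data, gave 9.44% for miR-139-5p and 239% for miR-139-3p. Leaving out each vehicle library in turn gave 9.20% to 12.2%, 1.38% to 1.76%, 4.19% to 5.29% and 189% to 254% in that order, and placed miR-504-5p and miR-139-5p at ranks 1 to 2 of the vehicle means. The 17 rows called lower by limma became 7 with a pseudocount of 0.1, 6 with 10, 46 with no filter, 0 with a value of at least 10 in every library (29 of 173 at an unadjusted p under 0.05), 0 with upper-quartile scaling (78 of 323) and 0 to 115 over the libraries left out. The 1 called higher became 0, 7, 0 and 0 with pseudocount 0.1, no filter, the filter in every library and upper-quartile scaling, 3 with the replicate block, and 0 to 32. The 9 intronic rows called lower became 3, 2, 27, 0 and 0 with pseudocounts 0.1 and 10, no filter, the filter in every library and upper-quartile scaling, and 0 to 54. The tumour-suppressor list had 0 to 6. The 115, 32, 54 and 6 came without WA replicate 3, and without vehicle replicate 1 there were 15 called lower. The count was 0 without vehicle replicate 2 or 3 or WA replicate 1 or 2, where 46 to 52 rows had an unadjusted p under 0.05. The cause was not tested. The replicate block gave 21 called lower, 15 of them shared with the 17, although same-numbered libraries did not deviate together (r = -0.0744, 0.0471 and -0.101). The median log2 fold change of all tested rows was -0.91, -0.81 with total-count and -0.62 with upper-quartile scaling. The count tests with edgeR and DESeq2 were not run. Depth limits the low miRNAs in WA replicate 1, where 3 reads are a normalized value of 17.4.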
